A study of Mus musculus with 9 samples.

Results

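The genes described here make, break down and bind hyaluronan in cultured mouse pancreatic stellate cells. They were chosen by symbol from the gene count table: the synthases Has1, Has2 and Has3, the hyaluronidases Hyal1 and Hyal2, and the binding proteins Cd44, Tnfaip6 and Hmmr. All 8 listed genes were found among 17156 genes, and all 8 passed the low-count filter, which kept 13613. Hyaluronan is a long, unsulphated sugar polymer of the matrix. The synthases sit in the plasma membrane and extrude it as they build it from UDP-glucuronic acid and UDP-N-acetylglucosamine. Pancreatic tumours have a stroma rich in hyaluronan, and stellate cells are among its known producers.

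Wild-type stellate cells from the pancreata of C57BL/6J mice were cultured for 4 days in 3 conditions with 3 libraries each. CM-JAKi was medium conditioned by pancreatic tumour organoids to which AZD1480, which inhibits JAK kinases, was added at 500 nM. CM was the conditioned medium without it. MG-CM was the control medium, DMEM with 5% FBS, also labelled as Matrigel-conditioned. Replicate 1 of each condition used the cell line PSC4, and replicates 2 and 3 used PSC5 (PSC5-I and PSC5-II). Each replicate number had its own source of conditioned medium, so line and source change together. The libraries held 25625806 to 32466018 counts, and the lowest count of any of the 8 genes in a library was 77. Levels are CPM, counts scaled to a common TMM-adjusted library total, and values are listed for replicates 1, 2 and 3 in that order. A gene was called at an adjusted p under 0.05 in edgeR's quasi-likelihood test with Benjamini-Hochberg adjustment over all genes kept. Libraries of one number share a stellate line and, in CM and CM-JAKi, a medium source. A fit with the replicate number as a block is therefore given for the 8 genes wherever it changed a call.

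The fibroblast genes Col1a1 and Pdgfra had 541 to 1120 CPM and 329 to 1350 CPM over the 9 libraries, and the stellate marker Des 0.924 to 3.32 CPM. Of the leukocyte markers, Ptprc and Cd3e had 0 to 1 counts in any library, Itgam 0 to 3, Cd79a 1 to 6 and Lyz2 2 to 17. Cd68 had 39 to 67 counts (1.34 to 2.4 CPM) and Csf1r 34 to 63 (1.05 to 2.07 CPM). The epithelial gene Epcam had 0 to 6 counts. The 8 leukocyte markers in the table summed to 15.9 to 32.8 CPM in CM-JAKi, 34.1 to 118 CPM in CM and 22.9 to 35.1 CPM in MG-CM, of which Cd14 alone had 12.8 to 114 CPM over all libraries. Cd14 was the only one of the 4 tested that was called, lower in CM-JAKi than in CM (log2 fold change -1.74 ± 0.50, adjusted p = 0.0410). That call ended without CM replicate 1 or 3 or CM-JAKi replicate 2 or 3 (adjusted p up to 0.138, log2 fold change -2.19 to -1.05 over the 6), and none of them ended it with the block. With the block Cd14 was also higher in CM than in MG-CM (1.09 ± 0.22, adjusted p = 0.0164). The 9 epithelial markers summed to 28.6 to 45 CPM in CM-JAKi, 34.4 to 37 CPM in CM and 34.5 to 49.2 CPM in MG-CM. Unlike Epcam, Sox9 had 12.8 to 26.1 CPM, Krt19 0.765 to 25.1 CPM and Muc1 1.97 to 16.5 CPM over all libraries. The 5 endothelial markers summed to 4.74 to 6.5 CPM in CM-JAKi, 3.48 to 13.7 CPM in CM and 7.88 to 12.8 CPM in MG-CM. The 6 mesothelial markers summed to 11.1 to 79.4 CPM in CM-JAKi, 3.44 to 75.6 CPM in CM and 7.55 to 26.1 CPM in MG-CM. Of these Msln alone had 1.15 to 67.1 CPM over all libraries. Among the marker genes of these other cell types, Muc1 (-1.83), Wt1 (-2.89) and Tek (1.39) were also called in CM-JAKi against CM, and Tek (-1.67) in CM against MG-CM, as log2 fold changes. Wt1 had 1 to 59 counts per library and Tek 15 to 75. Of the 6 fits with 1 library left out, 1 kept the call of Muc1, 2 that of Wt1 and 3 each call of Tek. With the block 6, 6 and 5 of them did. With the block the duct and mesothelial keratin gene Krt19 was called as well, higher in CM-JAKi than in CM (adjusted p = 0.00358). It was also called lower in CM than in MG-CM (blocked log2 fold change -1.71, adjusted p = 0.0156, and -1.41 without the block). Wt1 was called with the block in CM against MG-CM (0.0417). Of 11 stellate and fibroblast markers, Col1a1 (0.74) and Col1a2 (1.30) rose and Dcn (-2.77) fell in CM-JAKi against CM, while Dcn (2.86) rose and Vim (-1.03) fell in CM against MG-CM. With the block 5 rose and 1 fell in the first of these, adding Acta2, Vim and Pdgfra, and 1 rose and 3 fell in the second, adding Acta2 and Col1a2. Of all genes 10.1% were called higher and 8.93% lower in the first, or 18.6% and 15.6% with the block. In the second the shares were 4.85% and 5.39%, or 11.6% and 12.8% with the block. Acta2, the smooth muscle actin gene of activated stellate cells, averaged 405 ± 164 CPM in CM-JAKi, 71.7 ± 54.5 CPM in CM and 513 ± 217 CPM in MG-CM. Its log2 fold change was 2.5 ± 0.78 in CM-JAKi against CM (adjusted p = 0.0559, 0.00861 with the block) and -2.84 ± 0.79 in CM against MG-CM (0.0556, 0.00965 with the block), with no overlap in either. The part of these marker changes in the results below was not tested. In bulk libraries, fewer cells of a type and less RNA per cell cannot be told apart.

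Promoter sequences were at hand for 6 of the 8 genes in RefSeq on GRCm38.p6, but not for Has2 or Has3. The 250 bases before the start are shown for 4 of them: Hyal1 and Hmmr, called in CM-JAKi against CM, Has1, called there with the replicate block, and Tnfaip6, the one with a STAT match. They lie at chr17:17855189-17855438 on the minus strand for Has1, chr9:107576700-107576949 on the plus strand for Hyal1, chr2:52037863-52038112 on the plus strand for Tnfaip6 and chr11:40733438-40733687 on the minus strand for Hmmr. Each is written 5′ to 3′ with matches to any searched motif in capitals.
Has1: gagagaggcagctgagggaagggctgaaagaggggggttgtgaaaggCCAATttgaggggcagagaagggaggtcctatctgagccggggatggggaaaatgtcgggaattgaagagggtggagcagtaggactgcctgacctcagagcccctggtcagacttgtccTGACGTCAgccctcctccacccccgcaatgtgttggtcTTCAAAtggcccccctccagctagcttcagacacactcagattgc
Hyal1: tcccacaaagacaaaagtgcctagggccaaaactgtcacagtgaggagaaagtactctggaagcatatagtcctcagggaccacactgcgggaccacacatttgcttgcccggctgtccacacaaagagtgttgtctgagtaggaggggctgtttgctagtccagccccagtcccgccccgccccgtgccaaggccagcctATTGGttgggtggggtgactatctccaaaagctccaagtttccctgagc
Tnfaip6: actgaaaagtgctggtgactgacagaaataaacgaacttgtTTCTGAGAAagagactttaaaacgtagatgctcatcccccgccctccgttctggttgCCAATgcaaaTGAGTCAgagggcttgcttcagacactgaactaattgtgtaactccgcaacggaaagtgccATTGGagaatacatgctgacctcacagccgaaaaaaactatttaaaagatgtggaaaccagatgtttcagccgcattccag
Hmmr: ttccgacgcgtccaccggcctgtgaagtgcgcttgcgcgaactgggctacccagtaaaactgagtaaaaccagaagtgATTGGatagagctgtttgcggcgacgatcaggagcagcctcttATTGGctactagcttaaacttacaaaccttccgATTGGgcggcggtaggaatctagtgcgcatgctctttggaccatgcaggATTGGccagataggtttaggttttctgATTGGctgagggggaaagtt
The motifs were chosen after these sequences were seen and searched on both strands, so that ATTGG marks a CCAAT and TTCAAA a CHR on the opposite strand. The CRE letters TGACGTCA stand at -83 in Has1, and 1.55% of 32851 promoters of the same length hold them. The STAT letters TTCNNNGAA stand at -209 in Tnfaip6 (7.02% of promoters) and the AP-1 letters TGANTCA at -142 (6.75%). Hmmr holds 5 copies of CCAAT, a box common in cell cycle promoters, and 0.213% of promoters hold as many, while 33.8% hold at least 1. Hyal1 holds 1 CCAAT, Tnfaip6 holds 2, and Has1 holds 1 CCAAT and the CHR letters TTTGAA (16.0% of promoters). An NF-kB match (3.9% of promoters) was found in Hyal2 alone, and none of the motifs in Cd44. The Hyal2 sequence is not printed, although Hyal2 was also called in CM-JAKi against CM with the block. The matches are letters in these windows and no evidence of binding.

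Has2 had the largest log2 fold change of the 8 genes in both comparisons with CM-JAKi, and Has1 in CM against MG-CM. Stellate cells had more Has2 transcript in CM than in MG-CM, and less in CM-JAKi than in CM. Has1 had the same direction in every replicate pair, with a call under the replicate block. Has3 was not called in any comparison. Of the 8 genes, 1 rose and 0 fell in CM against MG-CM, or 12.5%, beside 10.2% of all genes called (4.85% higher and 5.39% lower). Before adjustment, edgeR's p was under 0.05 for 2 higher and 3 lower genes. By DESeq2 there were 2 calls higher and 1 lower. With the block 2 rose and 3 fell, beside 24.4% of all genes (11.6% higher and 12.8% lower). The groups of that comparison did not overlap for 4 of the 8 genes, or 50%, beside 32.7% of all genes. In CM-JAKi against CM, 2 of the 8 rose and 1 fell, or 37.5% beside 19.0% of all genes (10.1% higher and 8.93% lower). With the block 4 rose and 2 fell beside 34.2% (18.6% higher and 15.6% lower), and 6 of the 8 did not overlap, or 75%, beside 38.3%. Between CM-JAKi and MG-CM, edgeR called 0 of the 8 with or without the block, beside 1.01% of all genes (0.286% higher and 0.720% lower) and 4.25% with the block (1.85% higher and 2.40% lower). Before adjustment 1 was higher and 1 lower at a p under 0.05, DESeq2 called 1 lower, and 1 of the 8 did not overlap, or 12.5% beside 17.1%. The median log2 fold changes of the 8 genes were -0.27 in CM against MG-CM, 0.20 in CM-JAKi against CM and 0.02 in CM-JAKi against MG-CM, beside 0.00575, 0.00802 and 0.00541 over all genes. CM libraries enter both of the first comparisons with opposite sign, so opposite changes in them are not independent.

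**Figure D1:**
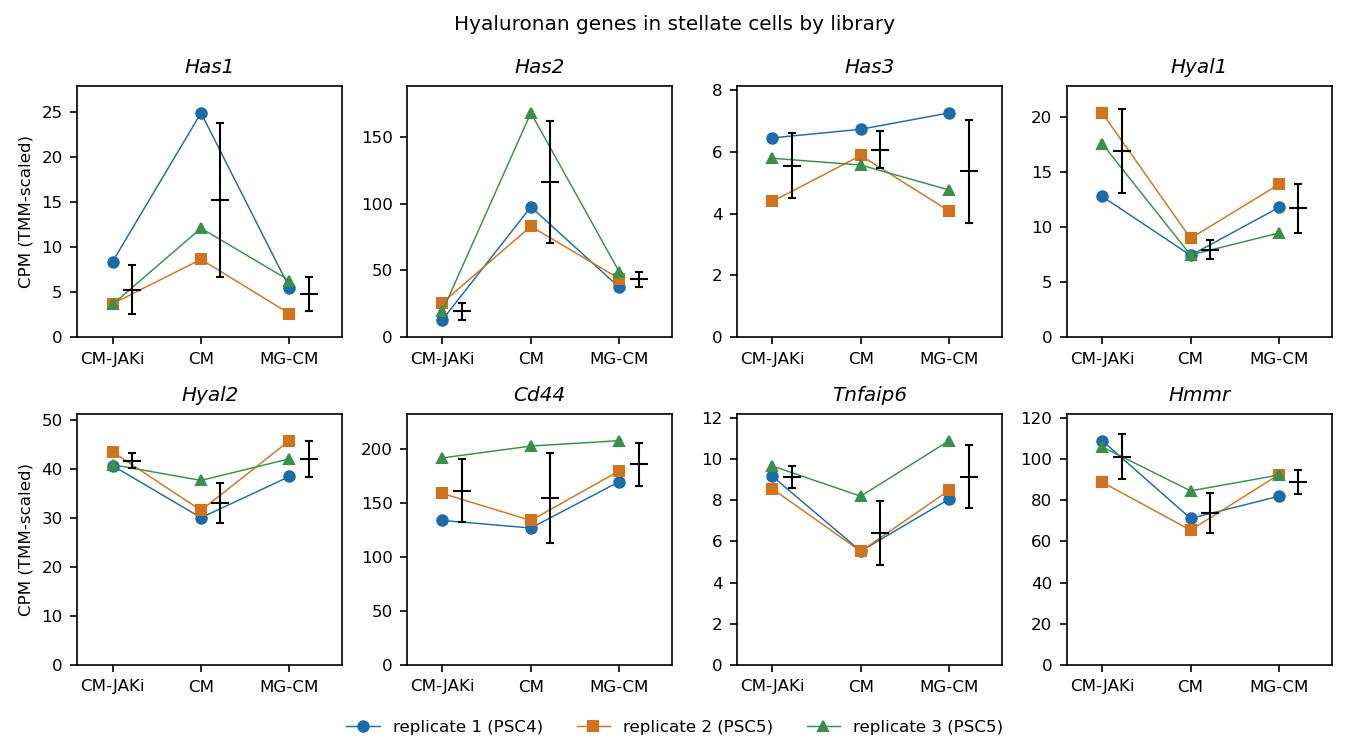
Level in CPM (TMM-scaled, linear axis from 0) of each hyaluronan gene in CM-JAKi, CM and MG-CM. Points are libraries joined by replicate number and black marks are means with SD (n = 3). Has2 lies at 83 to 168 CPM in CM, above all CM-JAKi (13.1 to 25.9 CPM) and MG-CM libraries (37.3 to 48.9 CPM).

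Has2 is the main hyaluronan synthase of mesenchymal cells and is needed for heart development in the mouse embryo. It had 13.1, 25.9 and 19.6 CPM in CM-JAKi, 97.6, 83 and 168 CPM in CM, and 37.3, 43.8 and 48.9 CPM in MG-CM. The 3 conditions did not overlap: every CM library was highest and every CM-JAKi library lowest. Has2 rose in CM (116 ± 45.7 CPM) against MG-CM (43.3 ± 5.8 CPM, SD, n = 3 each), by 2.68-fold (log2 fold change 1.42 ± 0.30 SE, edgeR adjusted p = 0.0245). Leaving out MG-CM replicate 1, 2 or 3 ended this call (adjusted p = 0.0689, 0.0966 and 0.0576), with log2 fold changes of 1.33, 1.43 and 1.52. With the block as well, it ended without CM replicate 1 (0.0628), MG-CM replicate 2 (0.052) or MG-CM replicate 3 (0.0505). Has2 fell in CM-JAKi (19.5 ± 6.43 CPM) against CM, to a level 5.95-fold lower (log2 fold change -2.57 ± 0.32, adjusted p = 0.00188). This call was kept without each of the 6 libraries in turn (log2 fold change -2.84 to -2.22, adjusted p up to 0.0105). CM-JAKi was also below MG-CM in 3 of 3 pairs (log2 differences of -1.51, -0.75 and -1.32) but not called (log2 fold change -1.15 ± 0.31, adjusted p = 0.162, 0.0620 with the block), except by DESeq2 (adjusted p = 0.00725) and with the block without CM-JAKi replicate 2 (0.0429).

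Has1, a synthase of the same family, had 8.4, 3.71 and 3.64 CPM in CM-JAKi, 24.9, 8.64 and 12.1 CPM in CM, and 5.49, 2.61 and 6.29 CPM in MG-CM. All CM libraries were above all libraries of both remaining conditions, with PSC4 (replicate 1) highest. In CM against MG-CM the log2 fold change was 1.66 ± 0.51 (adjusted p = 0.0711), higher in 3 of 3 pairs (2.17, 1.70 and 0.94). With the block the call was made (1.59 ± 0.28, adjusted p = 0.00945), and by DESeq2 as well (0.00685). That blocked call ended without MG-CM replicate 2 alone (0.0521). The inhibitor comparison, CM-JAKi against CM, gave -1.53 ± 0.50 (adjusted p = 0.0648, 0.0357 without CM-JAKi replicate 1). It was called with the block (-1.49 ± 0.27, adjusted p = 0.00738) and there without each library in turn (adjusted p up to 0.0274), and by DESeq2 (0.00991). Unlike Has2, Has1 averaged 5.25 ± 2.73 CPM in CM-JAKi and 4.79 ± 1.94 CPM in MG-CM (log2 fold change 0.14 ± 0.50, adjusted p = 0.967). That contrast with Has2 was not tested.

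Has3, the synthase known for making shorter chains, had 6.46, 4.4 and 5.8 CPM in CM-JAKi, 6.74, 5.89 and 5.58 CPM in CM, and 7.27, 4.09 and 4.77 CPM in MG-CM. The conditions overlapped. The log2 fold changes were 0.17 ± 0.24 in CM against MG-CM (adjusted p = 0.692) and -0.13 ± 0.24 in CM-JAKi against CM (adjusted p = 0.747). On the opposite strand Has3 overlaps Chtf8, whose level differed little (log2 fold change -0.01 ± 0.07 in CM-JAKi against CM, adjusted p = 0.915). Has2 overlaps an antisense RNA, Has2os, not analysed here. The library kit marks strand, but the setting used in counting is not given in the sources used here.

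To compare the synthases with each other, CPM were divided by the length of the longest coding transcript in GENCODE M21 (2095 bases for Has1, 4237 for Has2 and 5912 for Has3), an annotation of a later build than the counts. On this scale Has2 made up 37.7%, 70.8% and 63.0% of the summed level of the synthases in CM-JAKi, 63.9%, 79.3% and 85.5% in CM, and 69.6%, 84.2% and 75.2% in MG-CM. Has2 was the largest of the synthases per length in 8 of the 9 libraries. The exception was CM-JAKi replicate 1, of line PSC4, where Has1 had 48.9%. Has3 held 8.63% to 13.4% in CM-JAKi, 2.04% to 4.03% in CM and 5.26% to 9.72% in MG-CM. No run of 25 bases was shared between coding transcripts of any pair of the 8 genes, so reads of that length or more that match exactly are not split between them.

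**Figure D2:**
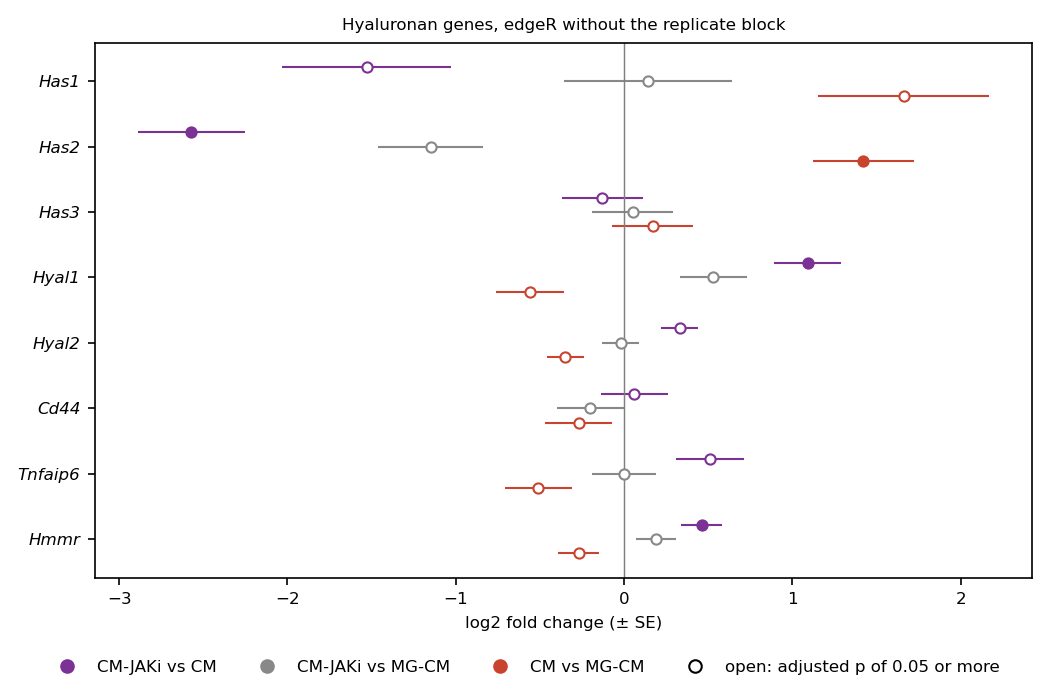
Log2 fold change with SE of each hyaluronan gene in the 3 comparisons (edgeR, all 9 libraries, no replicate block). Filled points were called. Has2 stands at -2.57 in CM-JAKi over CM and 1.42 in CM over MG-CM, and Hyal1 at 1.09 in CM-JAKi over CM.

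Of the hyaluronidases, Hyal1 rose with the inhibitor, and both genes had their lowest levels in CM, where Has1 and Has2 had their highest. Hyal1, a lysosomal enzyme that cuts hyaluronan into small fragments, had 12.8, 20.4 and 17.6 CPM in CM-JAKi, 7.44, 8.99 and 7.48 CPM in CM, and 11.8, 13.9 and 9.47 CPM in MG-CM. Every CM library was below every library of both remaining conditions. Hyal1 rose in CM-JAKi (17.0 ± 3.84 CPM) against CM (7.97 ± 0.881 CPM), by 2.13-fold (log2 fold change 1.09 ± 0.20, adjusted p = 0.00921), and was called with any 1 of the 6 libraries left out (adjusted p up to 0.042). Between CM and MG-CM the log2 fold change was -0.56 ± 0.20 (adjusted p = 0.113), called with the block alone among the fits to all 9 libraries (adjusted p = 0.0339). Without CM replicate 2 or 3, or MG-CM replicate 1 or 2, the blocked call ended (adjusted p up to 0.133). In CM-JAKi against MG-CM it was 0.53 ± 0.20 (adjusted p = 0.367), higher in 3 of 3 pairs.

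Hyal1 overlaps Nat6 (now Naa80) and Hyal3 on the same strand, so its estimated counts can include or lose reads of theirs. Nat6 moved with it in CM-JAKi against CM (26.6 ± 1.84 CPM in CM-JAKi and 18.5 ± 3.87 CPM in CM, log2 fold change 0.52 ± 0.15, adjusted p = 0.0443), and its part in the result of Hyal1 was not tested. Hyal3 had 0.645 ± 0.103 CPM in CM-JAKi and 0.447 ± 0.026 CPM in CM (adjusted p = 0.339).

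Hyal2, which is anchored to the cell surface and makes the first cuts in long chains, had 40.6, 43.4 and 40.8 CPM in CM-JAKi, 30, 31.5 and 37.6 CPM in CM, and 38.4, 45.7 and 42 CPM in MG-CM. Again every CM library lay below all others, by a smaller ratio. The log2 fold change was -0.35 ± 0.11 in CM against MG-CM (adjusted p = 0.0727) and 0.33 ± 0.11 in CM-JAKi against CM (adjusted p = 0.0603). Both were called with the block (adjusted p = 0.0302 and 0.0258) and by DESeq2 (0.031 and 0.0359), and with library size as the only scaling (0.0426 and 0.0263). The blocked calls rested on single libraries. In the first comparison it was kept without CM replicate 3 alone, and in the second without CM replicate 3 or CM-JAKi replicate 3 (adjusted p of those not called up to 0.126 and 0.107). CM-JAKi and MG-CM levels overlapped (log2 fold change -0.02 ± 0.11, adjusted p = 0.986).

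The genes of all 3 binding proteins were lower in CM than in MG-CM in 3 of 3 pairs. Without the replicate block none was called there, and Hmmr alone was called in CM-JAKi against CM. The block added Tnfaip6 in both comparisons. Cd44, the main cell-surface hyaluronan receptor, had 134, 159 and 192 CPM in CM-JAKi, 127, 134 and 203 CPM in CM, and 170, 180 and 208 CPM in MG-CM. The conditions overlapped, and replicate 3 was highest in each. No comparison was called (log2 fold change -0.27 ± 0.20 in CM against MG-CM, adjusted p = 0.421, 0.0567 with the block and 0.0254 there without CM replicate 3, and 0.06 ± 0.20 in CM-JAKi against CM, adjusted p = 0.850). The table gives 1 count per gene, so standard and variant Cd44 transcripts were not told apart.

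Tnfaip6 encodes TSG-6, a secreted protein that moves heavy chains of inter-alpha-inhibitor onto hyaluronan. It had 9.17, 8.56 and 9.67 CPM in CM-JAKi, 5.53, 5.52 and 8.2 CPM in CM, and 8.06, 8.49 and 10.9 CPM in MG-CM. CM lay below CM-JAKi without overlap and overlapped MG-CM through its replicate 3. The log2 fold change was 0.51 ± 0.20 in CM-JAKi against CM (adjusted p = 0.102, 0.0180 with the block) and -0.51 ± 0.20 in CM against MG-CM (adjusted p = 0.128, 0.0260 with the block). The blocked calls were kept without 3 of 6 libraries and 1 of 6, with adjusted p up to 0.0793 and 0.100 otherwise. The libraries whose loss ended them were CM-JAKi replicates 1 and 2 and CM replicate 2 in the first comparison, and each except CM replicate 3 in the second. Without CM replicate 3, Tnfaip6 and Hyal2 were called even with no block, in CM-JAKi against CM (adjusted p = 0.0357 and 0.0317) and in CM against MG-CM (0.0493 and 0.0406). For Tnfaip6, CM-JAKi and MG-CM averaged 9.13 ± 0.557 and 9.16 ± 1.54 CPM.

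Hmmr encodes RHAMM, a hyaluronan receptor that also binds the mitotic spindle. It had 109, 88.8 and 106 CPM in CM-JAKi, 71.2, 65.5 and 84.6 CPM in CM, and 82, 92.5 and 92.3 CPM in MG-CM. All CM-JAKi libraries were above all CM libraries. Hmmr rose in CM-JAKi (101 ± 11.1 CPM) against CM (73.8 ± 9.8 CPM), by 1.37-fold (log2 fold change 0.46 ± 0.12, adjusted p = 0.0309). The call ended without CM replicate 1 (0.0896), CM replicate 2 (0.0858), CM-JAKi replicate 1 (0.0726) or CM-JAKi replicate 3 (0.0899), and in a fit to the 6 libraries compared (0.0647). With the block it ended without CM-JAKi replicate 1 (0.0516) or CM replicate 2 (0.0538). Between CM and MG-CM the log2 fold change was -0.27 ± 0.12 (adjusted p = 0.180, 0.0807 with the block).

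Because Hmmr is transcribed mostly in dividing cells, it was set beside 20 genes of G2 and mitosis. In CM-JAKi against CM none of the 20 rose and 2 fell, both kinases of the spindle checkpoint (0 and 4 at an unadjusted p under 0.05 and by DESeq2, 0 and 5 with the block). Over all genes 10.1% were called higher and 8.93% lower there, or 18.6% and 15.6% with the block. Bub1 had 74.7, 68.8 and 73.6 CPM in CM-JAKi and 94.2, 85.6 and 107 CPM in CM (log2 fold change -0.40 ± 0.10, adjusted p = 0.0220). Ttk changed alike (-0.40 ± 0.11, adjusted p = 0.0405). Bub1 lost its call without CM-JAKi replicate 2 or 3 or CM replicate 3 (adjusted p up to 0.0851), and Ttk without those or CM replicate 1 (up to 0.124). The median of the 20 was -0.05, and Hmmr, at 0.46, was above each of them. Across the 9 libraries Hmmr correlated with them at a median Pearson r of 0.129 (-0.48 with Bub1 to 0.879 with Kif20a), while pairs within the 20 had a median r of 0.584. These libraries share conditions, lines and medium sources, so the values describe this set alone. Between CM and MG-CM edgeR called 0 of the 20, 3 were higher at an unadjusted p under 0.05, DESeq2 called 1 higher and the block 2. Over all genes 4.85% were called higher and 5.39% lower there, or 11.6% and 12.8% with the block.

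**Figure D3:**
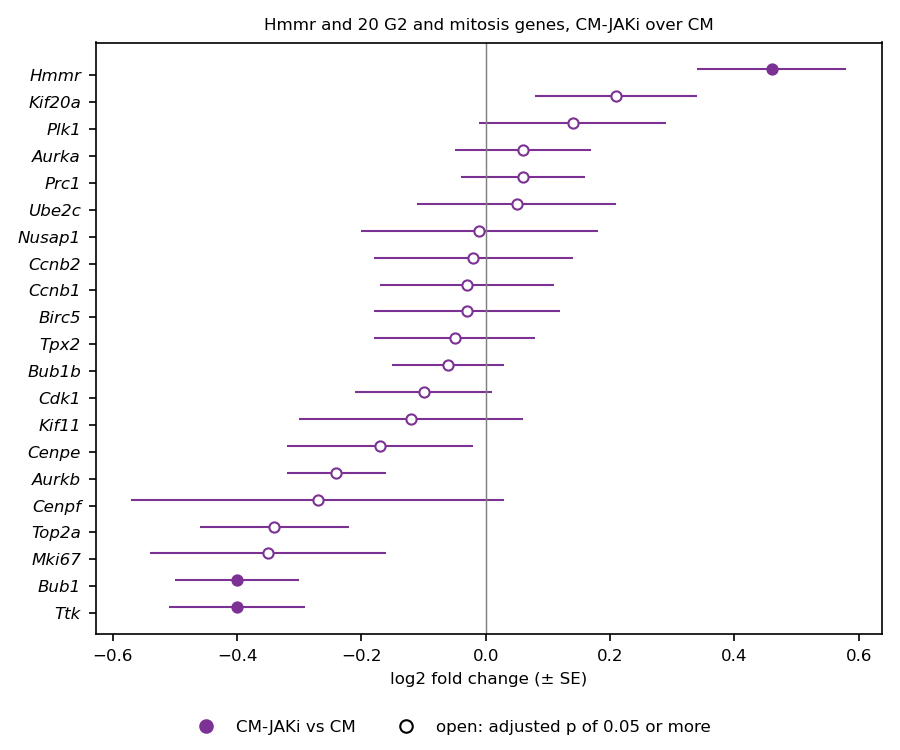
Log2 fold change with SE of Hmmr and 20 G2 and mitosis genes in CM-JAKi over CM (edgeR, no replicate block), ordered by value. Filled points were called: Hmmr at 0.46 is the highest, and Bub1 and Ttk at -0.40 are the lowest.

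Enzymes that make the sugar precursors of hyaluronan were examined as a list of 11 genes, of which all 11 were tested. Against MG-CM, 3 rose and 1 fell in CM (4 and 1 with the block), and in CM-JAKi against CM 1 rose and 4 fell (1 and 4 with the block). The median log2 fold changes were 0.13 and -0.03, over members that moved both ways. Of all genes 4.85% were called higher and 5.39% lower in the first comparison, or 11.6% and 12.8% with the block. In the second the shares were 10.1% and 8.93%, or 18.6% and 15.6% with the block. Gfpt2, an isoform of the rate-limiting enzyme of the hexosamine pathway, had 27.5, 34.9 and 27.3 CPM in CM-JAKi, 65.6, 72.2 and 81.7 CPM in CM, and 33.4, 27.1 and 32.9 CPM in MG-CM. Every CM library was above all others. Gfpt2 rose in CM against MG-CM (log2 fold change 1.23 ± 0.14, adjusted p = 0.00569) and fell in CM-JAKi against CM (-1.29 ± 0.14, adjusted p = 0.000847), each with any 1 of the 6 libraries left out (adjusted p up to 0.035 and 0.00544). Its paralogue Gfpt1 was not called (0.13 ± 0.09 and -0.03 ± 0.09, adjusted p = 0.394 and 0.855).

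Ugdh, which makes UDP-glucuronic acid, had 213, 166 and 164 CPM in CM-JAKi, 320, 278 and 319 CPM in CM, and 266, 211 and 228 CPM in MG-CM. It fell in CM-JAKi against CM (log2 fold change -0.75 ± 0.13, adjusted p = 0.00773), also with any 1 library left out (adjusted p up to 0.0384). Its difference between CM and MG-CM of 0.38 ± 0.13 on the log2 scale was called with the block alone of these fits (adjusted p = 0.106, 0.0165 with the block). That blocked call was kept without CM replicate 1 alone (adjusted p otherwise up to 0.0751). Gnpnat1, the acetyltransferase of the hexosamine pathway, rose in CM against MG-CM by 0.76 ± 0.17 on the log2 scale (adjusted p = 0.0289) and fell in CM-JAKi against CM (-0.69 ± 0.17, adjusted p = 0.0275). Gpi1, which interconverts hexose phosphates of glycolysis, did the same (0.79 ± 0.18, adjusted p = 0.0269, and -0.68 ± 0.18, adjusted p = 0.0309). Nagk, which salvages N-acetylglucosamine from breakdown, moved the other way, fell in CM against MG-CM (-0.61 ± 0.16, adjusted p = 0.0465) and rose in CM-JAKi against CM (0.73 ± 0.16, adjusted p = 0.0164).

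Single libraries carried part of these calls. For CM against MG-CM, leaving out CM replicate 1, MG-CM replicate 1 or MG-CM replicate 2 ended the calls of Gnpnat1, Gpi1 and Nagk, as did MG-CM replicate 3 for Gnpnat1 and Nagk and CM replicate 3 for Gpi1 and Nagk (adjusted p up to 0.101, 0.0966 and 0.175). For CM-JAKi against CM, Nagk lost its call without CM-JAKi replicate 2 alone (0.064). Gnpnat1 and Gpi1 lost theirs without CM replicate 1 or CM-JAKi replicate 1 or 2, and Gpi1 also without CM replicate 3 (adjusted p up to 0.0849 and 0.0818). With the block Gpi1 kept both calls and Nagk the second without each library (adjusted p up to 0.0299, 0.0291 and 0.0199). Nagk lost the first there without MG-CM replicate 1 or 2 (up to 0.0608). Gnpnat1 lost the first there without CM replicate 2 or any MG-CM replicate and the second without CM replicate 2 or CM-JAKi replicate 1 or 2 (up to 0.117 and 0.120).

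**Figure D4:**
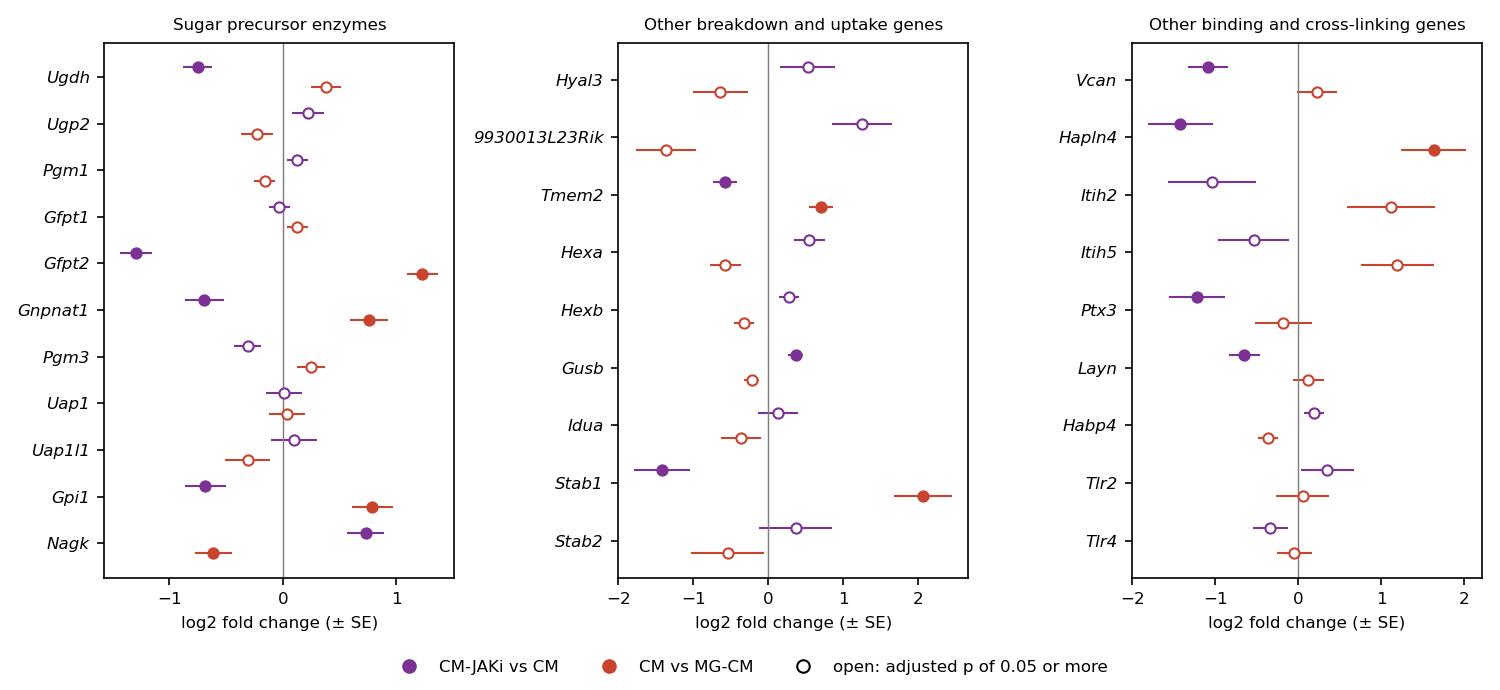
Log2 fold change with SE of the tested genes of the lists around hyaluronan, in CM-JAKi over CM and in CM over MG-CM (edgeR, no replicate block). Filled points were called. Gfpt2 stands at -1.29 and 1.23 and Vcan at -1.09 and 0.22.

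Of 12 further genes of hyaluronan breakdown and uptake, 9 were tested. Against MG-CM, 2 rose and 0 fell in CM (2 and 1 with the block or by DESeq2, 2 and 3 at an unadjusted p under 0.05). Against CM, 1 rose and 2 fell in CM-JAKi (2 and 2 with the block). The shares of all genes were 4.85% higher and 5.39% lower in the first comparison, and 10.1% and 8.93% in the second. With the block they were 11.6% and 12.8%, and 18.6% and 15.6%. The gene that the block added in both is Hexa, of lysosomal hexosaminidase (log2 fold change -0.57 in CM against MG-CM, adjusted p = 0.0297 with the block, and 0.55 in CM-JAKi against CM, 0.0257 with the block). The lysosomal exoglycosidase Gusb rose in CM-JAKi against CM (105 ± 4.7 CPM and 81.6 ± 5.04 CPM, log2 fold change 0.37 ± 0.10, adjusted p = 0.0419), but the call ended whichever of the 6 libraries was left out (adjusted p 0.0566 to 0.119). Tmem2, a cell-surface protein reported to degrade hyaluronan in the mouse, had 92.8, 80.5 and 80.2 CPM in CM-JAKi, 161, 98.8 and 117 CPM in CM, and 81.7, 70.7 and 78.5 CPM in MG-CM. It rose in CM against MG-CM (0.71 ± 0.16, adjusted p = 0.0310) and fell in CM-JAKi against CM (-0.57 ± 0.16, adjusted p = 0.0419). Without CM replicate 1 or 3 both calls ended, as the first did without MG-CM replicate 1, 2 or 3 and the second without CM-JAKi replicate 2 or 3 (adjusted p up to 0.127 and 0.128). With the block both held without each library (adjusted p up to 0.0328 and 0.0398). The scavenger receptor gene Stab1 had 13 to 15 counts per library in CM-JAKi, 27 to 52 in CM and 6 to 10 in MG-CM. It was called higher in CM than in MG-CM (2.07 ± 0.39, adjusted p = 0.0182) and lower in CM-JAKi than in CM (-1.42 ± 0.37, adjusted p = 0.0321). The first call ended without MG-CM replicate 1 or 2 (adjusted p up to 0.0847), and the second without CM replicate 1 or any CM-JAKi replicate (up to 0.106). With the block the first ended without the same libraries (up to 0.0599). The second was kept there without CM replicate 3 alone (otherwise up to 0.125).

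The gene listed as 9930013L23Rik is Cemip, which encodes a protein needed for hyaluronan breakdown by human skin fibroblasts, and it is described here for its values. It had 195, 131 and 99.4 CPM in CM-JAKi, 29.6, 73.2 and 76 CPM in CM, and 218, 118 and 122 CPM in MG-CM. Every CM library was below all others, and the PSC4 library of CM was lowest. It was not called over all libraries (log2 fold change 1.25 ± 0.40 in CM-JAKi against CM, adjusted p = 0.0612, and -1.36 ± 0.40 in CM against MG-CM, adjusted p = 0.0666).

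Of 21 further genes that bind or cross-link hyaluronan, 9 were tested. Against CM, 4 of the 9 fell and 0 rose in CM-JAKi (median log2 fold change -0.65). The counts were the same with the block, by DESeq2 and at an unadjusted p under 0.05. Against MG-CM, 1 rose and 0 fell in CM (1 and 1 with the block or by DESeq2, 2 and 1 at an unadjusted p under 0.05, median 0.12), the added one being Habp4 (-0.36, adjusted p = 0.0352 with the block). Of all genes 10.1% were called higher and 8.93% lower in CM-JAKi against CM, or 18.6% and 15.6% with the block. In CM against MG-CM the shares were 4.85% and 5.39%, or 11.6% and 12.8% with the block. Vcan encodes versican, a large proteoglycan that binds hyaluronan. It had 356, 313 and 424 CPM in CM-JAKi, 776, 513 and 1040 CPM in CM, and 610, 630 and 753 CPM in MG-CM. All CM-JAKi libraries were below all others, while CM and MG-CM overlapped. Vcan fell in CM-JAKi against CM (-1.09 ± 0.24, adjusted p = 0.0163), but not without CM-JAKi replicate 2 (0.0697). Between CM-JAKi and MG-CM Vcan differed by -0.87 ± 0.24 (adjusted p = 0.174), called with the block (0.0237) but in no blocked fit with 1 library left out (0.0559 to 0.114).

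Ptx3, a pentraxin that TSG-6 binds in hyaluronan matrices, had 85.5, 28 and 50.2 CPM in CM-JAKi, 130, 140 and 112 CPM in CM, and 174, 116 and 142 CPM in MG-CM. It fell in CM-JAKi against CM (-1.22 ± 0.34, adjusted p = 0.0392), and against MG-CM was called with the block (-1.40 ± 0.34, adjusted p = 0.125, 0.0421 with the block) and without CM-JAKi replicate 1 (0.0264). The blocked call against MG-CM was kept without that library alone (adjusted p otherwise up to 0.175). The hyaluronan receptor gene Layn fell as well in CM-JAKi against CM (-0.65 ± 0.19, adjusted p = 0.0465). Hapln4, a link protein gene known from brain, fell in CM-JAKi against CM (2.92 ± 1.26 CPM and 7.82 ± 1.7 CPM, adjusted p = 0.0351) and rose in CM against MG-CM (2.53 ± 0.883 CPM in MG-CM, adjusted p = 0.0338). The call of Layn and of Ptx3 was kept without CM-JAKi replicate 1 alone, and that of Hapln4 without CM replicate 3 alone (adjusted p otherwise up to 0.139, 0.107 and 0.100). Between CM and MG-CM the call of Hapln4 ended whichever of the 6 libraries was left out (0.0506 to 0.124). With the block Layn and Ptx3 were called in CM-JAKi against CM without each library, and Hapln4 was not without CM-JAKi replicate 1 or 2 (up to 0.0692).

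Among 11 tested partners and sheddases of Cd44, of 12 listed, 1 rose and 0 fell in CM against MG-CM (1 and 2 with the block, 2 and 2 at an unadjusted p under 0.05, 1 and 0 by DESeq2). In CM-JAKi against CM 1 rose and 1 fell (3 and 1 with the block). The shares of all genes were 4.85% higher and 5.39% lower in the first comparison, and 10.1% and 8.93% in the second. With the block they were 11.6% and 12.8%, and 18.6% and 15.6%. The block added the protease gene Mmp14 and the receptor gene Met in both, lower in CM than in MG-CM (log2 fold changes -0.50 and -0.78) and higher in CM-JAKi than in CM (0.46 and 0.54). Spp1 encodes osteopontin, a Cd44 ligand other than hyaluronan. It averaged 1250 ± 956 CPM in CM-JAKi, 13200 ± 8690 CPM in CM and 1300 ± 579 CPM in MG-CM. It rose in CM against MG-CM (3.35 ± 0.69, adjusted p = 0.0224) and fell in CM-JAKi against CM (-3.40 ± 0.69, adjusted p = 0.0127). The first call ended without CM replicate 1 or MG-CM replicate 2 or 3 (adjusted p up to 0.0922), and the second without CM-JAKi replicate 2 (0.058). Mmp9, a gelatinase that docks on Cd44, had 8.99, 5.89 and 6.3 CPM in CM-JAKi, 2.33, 2.01 and 2.03 CPM in CM, and 2.2, 5.21 and 3.45 CPM in MG-CM. It rose in CM-JAKi against CM (1.73 ± 0.32, adjusted p = 0.00865), also with any 1 library left out (adjusted p up to 0.0287). The cytoskeletal linkers Ezr, Rdx and Msn were not called in any comparison. Between CM-JAKi and MG-CM edgeR without the block called 0 genes of these lists around hyaluronan, beside 1.01% of all genes. With the block it called 2 lower, the binding genes Vcan and Ptx3, beside 4.25% of all genes. At an unadjusted p under 0.05 edgeR without the block had 3 lower among the other binding genes. It had 2 higher and 1 lower among the Cd44 partners and 1 lower among the precursor enzymes. DESeq2 called 2 lower, both binding genes.

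The stellate lines were compared across conditions with the condition in the fit. Has1 was lower in PSC5 than in PSC4 (6.17 and 12.9 CPM on average, log2 difference -0.96 ± 0.28, adjusted p = 0.0450), beside 21.0% of all genes called. That call ended without the low-count filter (0.0524) and without replicate 2 (-0.69, adjusted p = 0.216). In MG-CM the PSC4 library (5.49 CPM of Has1) lay between those of PSC5 (2.61 and 6.29 CPM). In CM the PSC4 library had 24.9 CPM beside 8.64 and 12.1 CPM, and in CM-JAKi 8.4 CPM beside 3.71 and 3.64 CPM. Has2 was not called (64.9 and 49.3 CPM, 0.48 ± 0.22, adjusted p = 0.163), except without replicate 2 (0.60, adjusted p = 0.0459). The PSC4 arm is 1 replicate set, whose libraries are not independent of each other, so these p-values are too small for a difference between lines. Line and medium source cannot be told apart here. Over the 8 genes the change in PSC5 minus that in PSC4 ran from -0.95 (Has1) to 0.48 (Has3) on the log2 scale in CM against MG-CM. In CM-JAKi against CM this difference ran from -0.32 (Tnfaip6) to 0.44 (Has2). In CM-JAKi against MG-CM it ran from -0.88 (Has1) to 0.58 (Hyal1). With 1 PSC4 library per condition these differences cannot separate the line from that library.

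For each of the 8 genes, the genes with the closest profile were taken by Pearson correlation of log2 CPM over the 9 libraries, from 10230 candidates. As the highest of so many, the values are high by selection and are given without a test. Has2 was closest to Mapk11 (r = 0.972) and Fbln2 (0.969), and Has1 to Pdia3 and Taf5 (0.981 each). Hyal1 was closest to Elmod3 (0.988) and Myst4 (0.979), and Hyal2 to Zc4h2 (0.977) and Bphl (0.971). Hmmr was closest to Gng2 (0.965) and Brp44l (0.946), and Tnfaip6 to Rhobtb3 (0.963) and Mtmr10 (0.962). Cd44 was closest to Ap2a2 (0.953) and Cdc42ep4 (0.936), and Has3 to Rdh5 (0.947) and Son (0.939). Among the 8 genes themselves, the strongest correlations were those of Tnfaip6 with Hyal2 (0.868) and Hmmr (0.867), of Has1 with Hyal2 (-0.833) and of Hyal1 with Has1 (-0.821) and Has2 (-0.808), while Has1 and Has2 correlated at 0.57.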

How the data were processed

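RNA extracted with a PureLink kit was made into stranded, ribosomal RNA-depleted total RNA libraries (TruSeq), per the labels' protocols. Named without roles are the builds NCBIM37 and mm9, DESeq2, RSEM 1.2.29 and STAR 2.5.1b, per the submitters' processing notes. The deposited table holds gene counts made by the authors, read here as estimated counts rounded to whole numbers and not scaled, from their values and from RSEM being named. Such estimates divide reads between overlapping or alike genes. Genes are given by symbol.

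The test was that of edgeR 4.0.16 in R 4.3.3 (filterByExpr with minimum count 10 and total 15, TMM, robust quasi-likelihood fit of all 9 libraries with a term per group), and DESeq2 1.42.0 as an alternative. The SE is the log2 fold change over the root of F. The fit was tested on simulated data with known changes. Log2 CPM used a prior count of 2. The replicate number was not in the main fit, because the labels state no paired model. It pairs the libraries through the shared stellate line, and same-number libraries correlated at 0.291 to 0.68 over 9 pairs after group means were removed. The labels call the replicates biological, and p-values measure the spread between these cultures. The 8 genes and the lists were chosen with earlier results of these data known. Genes of the lists were named if called, up to 4 per list and comparison by smallest p. Cemip, Hexa, Habp4, Mmp14, Met, Gfpt1, Acta2, Krt19, Pdgfra and the overlapping genes are outside that rule and were added after their values were seen. Closest profiles were taken as the 2 highest Pearson correlations per gene. Sequences are from RefSeq (GRCm38.p6), motif and overlap searches were run in Python. Alternatives were other scalings, no filter, the block, a line term, the compared groups alone and each library left out, with the block too in fits added after the data were seen.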

Additional observations from a re-analysis of the deposited data

Results flagged for a closer look

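The gene listed as 9930013L23Rik (Cemip) is listed because its change in the PSC4 pair stood apart from that in the PSC5 pairs, by edgeR's interaction test with Benjamini-Hochberg adjustment over all genes. In CM against MG-CM the log2 change was -0.70 and -0.69 in the PSC5 pairs and -2.88 in the PSC4 pair, a PSC5 minus PSC4 difference of 2.19 ± 0.23 (adjusted p = 0.0213). In CM-JAKi against CM it was 0.84 and 0.39 in the PSC5 pairs and 2.72 in the PSC4 pair, a difference of -2.09 ± 0.23 (adjusted p = 0.0257). CM replicate 1, the 1 PSC4 library in CM, enters both comparisons (29.6 CPM, beside 73.2 and 76 CPM in PSC5). The PSC4 library was also apart from those of PSC5 in MG-CM (218 CPM, beside 118 and 122 CPM). In CM-JAKi it had 195 CPM, beside 131 and 99.4 CPM. With 1 PSC4 library per condition a difference between lines is not shown. Over all genes 31 and 50 had such a difference. The gene was noticed among the lists after its values were seen, and line and medium source cannot be told apart.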

How the results depend on the processing

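Directions of called values for the 8 genes held in every alternative run, and 0 were reversed. In CM against MG-CM, where 1 gene was higher and 0 lower, the replicate block gave 2 and 3, DESeq2 2 and 1, the cell line term 2 and 1, and library size alone 1 and 1. Leaving out single libraries gave 0 to 1 higher and 0 to 2 lower, or 0 to 2 and 0 to 3 with the block. In CM-JAKi against CM, where 2 were higher and 1 lower, the block gave 4 and 2, DESeq2 and the line term each 3 and 2, library size alone 3 and 1, and a fit to the 6 libraries compared 1 and 1. Single libraries left out gave 1 to 4 higher and 1 to 2 lower, or 1 to 4 and 2 with the block. In CM-JAKi against MG-CM DESeq2 gave 1 lower, and the block without single libraries 0 to 1. The cause of these moves was not tested. RLE scaling and no low-count filter left each of these counts as it was. Library size alone moved the median log2 change of all genes to 0.103 for the inhibitor (0.00802 with TMM), and to -0.0663 for CM over MG-CM (0.00575 with TMM). Counts of at least 77 per library stood behind each level of the 8 genes, and counting error weighs most on Has1, which had the lowest.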
